A study of Ictidomys tridecemlineatus with 15 samples.

Results

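Early-stage neurogenic progenitors of the 13-lined ground squirrel (13LGS) retina were examined as the cells that carry the annotation Early_NG in the deposited cell table at embryonic day 18 (E18), E21, E24 and E26. These were 1762 of 19630 cells in the embryonic libraries, and of 53394 cells in the whole series. A further 203 cells with the same annotation came from P1, P4, P8 and P12 and are not included. The 1762 cells came from 7 libraries of whole retina, with 484 cells in the single library of E18, 192 and 158 cells in the libraries of E21 (E21a and E21b), 233 and 146 cells at E24 (E24a and E24b), and 425 and 124 cells at E26 (E26a and E26b). The letters only tell the libraries of an age apart, since the cell names do not carry the replicate numbers of the labels. The retinas came from embryos of timed-pregnant captive dams, untreated and with no genotype given, and mouse Theiler stages were used to check the embryonic day. Nothing in the sources used here says that the libraries of a time point came from separate animals or litters, so p-values measure only the spread between libraries, which may be technical.

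Neurogenic progenitors are the transitional cells between cycling retinal progenitors, called primary progenitors here, and postmitotic neurons. In vertebrate retinas they switch on proneural bHLH factors such as Atoh7 and Neurog2, together with Hes6 and the antiproliferative gene Btg2, while Notch signalling holds neighbouring primary progenitors in the cycle. In rod-dominant retinas such as that of the mouse, early neurogenic progenitors give rise to ganglion cells, horizontal cells, cones and amacrine cells. Later ones there give rise to rods, bipolar cells and further amacrine cells. For the ground squirrel, the study reports that cones arise from late-stage neurogenic progenitors as well. It found no clear path from these to rods, which it regards as a likely result of how few rods were detected. The list of gene names in the deposited files is shorter than the matrix, with 30265 names for 34181 rows, and carries no row numbers. Names and rows cannot be matched from these files, so the levels of Atoh7, Hes6, Neurog2 and Btg2 are not analysed here. Each gene is called by the number of its matrix row, starting at 1.

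The values were counts of unique molecular identifiers (UMIs), so that each count is a captured mRNA molecule and not a PCR copy. The Early_NG cells held 15205566 UMIs over 25155 rows. The embryonic libraries held 1566 to 5522 cells, and the median cell of a library had 5230.5 to 11868 UMIs over all classes. Of the cell barcodes, 56 occurred in more than 1 embryonic library, and 12 Early_NG cells carried such a barcode. The labels describe both rehydrated methanol-fixed cells and nuclei from flash-frozen tissue, without saying which library was which, so preservation and age cannot be told apart. E26a stood apart from the other libraries in its Early_NG cells. It held the cell of highest UMI count (295040, against 20722 to 73143 in the other libraries), and the 7 cells of highest UMI count in that library were all annotated Early_NG. Results that rest on E26a are given with and without it or its cells of high UMI count.

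The label could not be checked by marker names, so it was checked by assignment. From each of 5 embryonic classes at most 500 cells per library were drawn, a limit that Early_NG cells did not reach. The same limit held for the nearest-profile assignments given below. Each drawn cell was thinned to 2000 UMIs and assigned to the class whose mean profile in the other libraries it correlated with best. The classes were Early_NG, early-stage primary progenitors (Early_RPC), retinal ganglion cells, horizontal cells and photoreceptor precursors. The annotation had been made on all libraries together, so this is a description and not an independent test. Of 1731 Early_NG cells with at least 2000 UMIs, 1393 (80.5%) were nearest to Early_NG. This was the lowest share of the 5 classes, against 94.1% of primary progenitors, 99.1% of horizontal cells, 90.2% of ganglion cells and 90.1% of photoreceptor precursors. The Early_NG cells assigned elsewhere went mainly to primary progenitors (9.94%) and photoreceptor precursors (7.74%), with 1.73% nearest to horizontal cells and 0.116% nearest to ganglion cells.

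The assignment was less clear in the later libraries. The share nearest to Early_NG was 94.3% in E18, 83.0% in E21a, 88.6% in E21b, 78.3% in E24a, 76.0% in E24b, 67.4% in E26a and 66.9% in E26b. All 4 libraries of E24 and E26 lay below the 3 libraries of E18 and E21. The share nearest to primary progenitors was 0.212% in E18, 5.85% in E21a, 1.27% in E21b, 20.4% in E24a, 11.6% in E24b, 15.2% in E26a and 25% in E26b. Again the libraries of the 2 periods did not overlap. Primary progenitors themselves were assigned to Early_NG in 5.90% of the drawn cells.

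Early_NG cells made up a similar share of each embryonic library. They were 8.76% of all cells in E18 (95% Wilson interval 8.05 to 9.54%), 10.4% in E21a, 10.1% in E21b, 8.42% in E24a, 7.71% in E24b, 10.9% in E26a and 5.77% in E26b (4.86 to 6.84%). The intervals cover counting error only. The highest and lowest shares both came from E26, and the 2 libraries of that age differed by more than their counting intervals. The share showed no detectable relation to age over the 7 libraries (Spearman's rho = -0.22, two-sided exact permutation p = 0.641; Pearson's r = -0.31, exact permutation p = 0.498, and -0.33 when E18 and E21a, the libraries farthest in age from the median, were left out). Adjusted over the 2 relations of abundance to age, the p-values were 0.641 and 0.498. Without E26a rho was -0.79 (exact permutation p = 0.0778).

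The number of Early_NG cells per 100 early-stage primary progenitors was 12.4 in E18, 22.1 in E21a, 24.4 in E21b, 20.6 in E24a, 23.6 in E24b, 41.7 in E26a and 18.6 in E26b. E18 was lowest and E26a highest, while the other 5 libraries lay between 18.6 and 24.4. Over the same libraries primary progenitors made up 70.5% of cells in E18 and 26.1% to 47.3% of cells in the others. The relation of the ratio to age was not significant (rho = 0.31, exact permutation p = 0.502, adjusted p = 0.641; r = 0.58, exact permutation p = 0.154, adjusted p = 0.308, and r = 0.29 without E18 and E21a). Without E26a rho was 0.03 (exact permutation p = 0.978). Cells annotated as late-stage neurogenic progenitors were 8.01% of all neurogenic progenitors in E26a and 0% to 3.03% in the other 6 libraries.

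**Figure D1:**
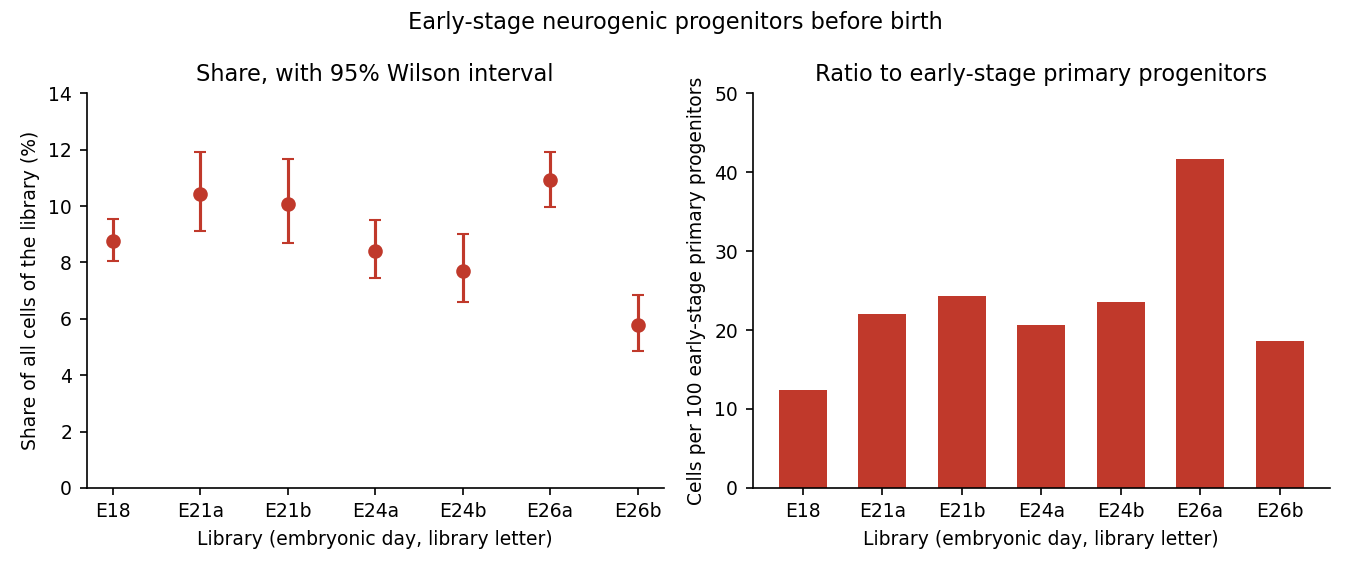
Left, Early_NG cells as a percentage of all cells of each library (points) with 95% Wilson intervals (bars); right, Early_NG cells per 100 early-stage primary progenitors in each library. Shares lie between 5.77% and 10.9% with no order by age, and the ratio stands out at E26a (41.7).

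Early_NG cells held fewer UMIs than primary progenitors and ganglion cells. The median UMI count per Early_NG cell was 5910 in E18, 7233.5 in E21a, 9684 in E21b, 6074 in E24a, 8529 in E24b, 4656 in E26a and 6478.5 in E26b. The mean of these library medians was 6938 ± 1702 (SD, n = 7), against 8729 ± 2575 in primary progenitors and 10980 ± 2638 in ganglion cells. The median was below that of primary progenitors of the same library in 6 of 7 libraries, a mean difference of -1791 UMIs (exact two-sided sign-flip permutation p = 0.0312, adjusted over 4 comparisons p = 0.0417); E24a was the exception. With library means in place of medians the difference was -2764 UMIs (exact permutation p = 0.0625), and p was also 0.0625 when any 1 of the other 6 libraries was left out. The Early_NG median was below that of ganglion cells in 7 of 7 libraries, a mean difference of -4042 UMIs (exact permutation p = 0.0156, the smallest that 7 libraries allow, adjusted p = 0.0312). The medians of horizontal cells (3511 to 6986 UMIs) and photoreceptor precursors (2837.5 to 7546 UMIs) were below that of Early_NG cells in every library that held them, a difference that was not tested.

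Gene diversity followed another order than depth. At 2000 UMIs per cell, Early_NG cells had a mean of library medians of 1099 ± 41.6 detected genes (SD, n = 7) and primary progenitors 1097 ± 32.9. The difference of 2.35 ± 16.4 genes (SD) was within the spread between libraries (exact permutation p = 0.750). Ganglion cells had 1162 ± 27.5 detected genes at the same depth. Early_NG cells had fewer in 7 of 7 libraries, a mean difference of -63.2 ± 27.6 genes (SD, exact permutation p = 0.0156, adjusted p = 0.0312). The 31 Early_NG cells with under 2000 UMIs, 13 of them in E18 and 11 in E26a, were left out of these values.

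A minority of Early_NG cells held much of their RNA. Cells with over 2 times the median UMI count of their library and class were 3.1% of Early_NG cells in E18, 13.5% in E21a, 4.43% in E21b, 13.7% in E24a, 13.7% in E24b, 17.6% in E26a and 16.1% in E26b. They held 6.89%, 34.7% and 12.9% of the Early_NG UMIs in E18, E21a and E21b, and 36.4%, 35.0%, 60.9% and 46.5% in E24a, E24b, E26a and E26b. All 4 later libraries were above all 3 earlier ones, but E21a (34.7%) and E24b (35.0%) lay close together. The relation of this measure to age was not tested. In primary progenitors such cells held 25.7% to 49.2% of the UMIs, and in ganglion cells 5.75% to 23.4%. When all cells were thinned to 2000 UMIs, the peak rows described next took 0.542% ± 0.085 of the UMIs in the high cells and 0.750% ± 0.094 in the other Early_NG cells (SD, n = 7). The high cells were lower in 7 of 7 libraries (exact permutation p = 0.0156, adjusted over 6 measures p = 0.0938). Rows that lead primary progenitors took 0.603% ± 0.145 in high cells and 0.452% ± 0.157 in the others, and were higher in 6 of 7 libraries (exact permutation p = 0.0312, adjusted p = 0.0938). The number of detected genes at 2000 UMIs was 1120 ± 62.9 in high cells and 1097 ± 40.8 in the others (exact permutation p = 0.141, adjusted p = 0.211). This comparison was chosen after the data had been seen, and none of its 6 measures passed an adjusted p of 0.05.

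**Figure D2:**
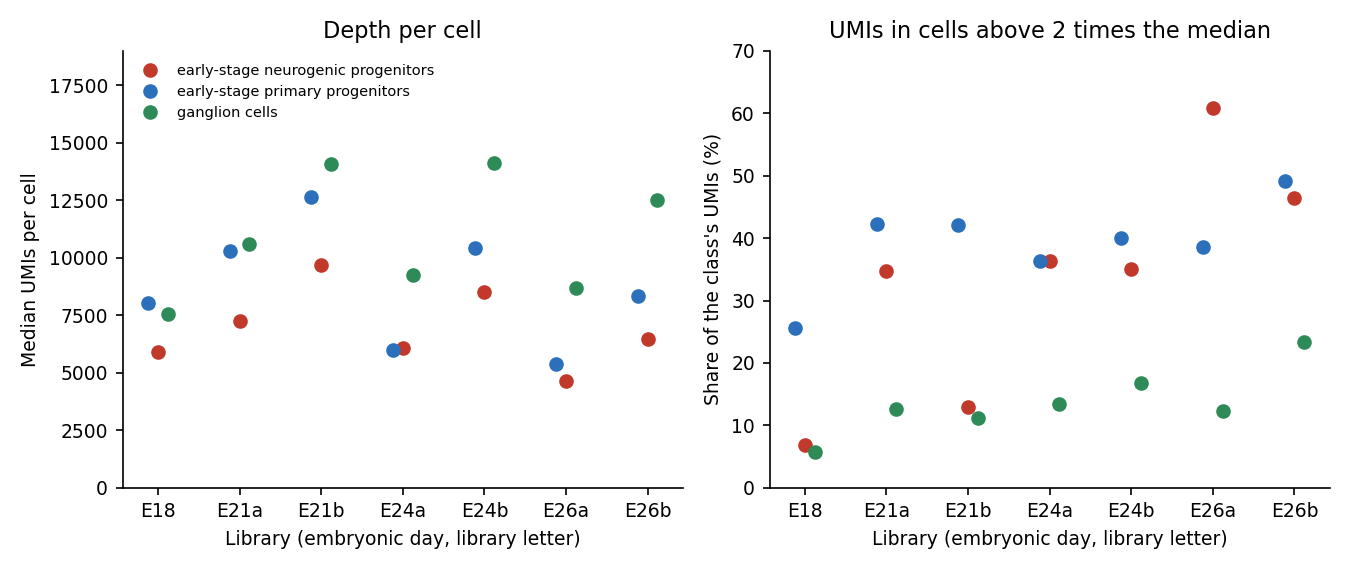
Left, median UMIs per cell in each library for Early_NG cells, early-stage primary progenitors and ganglion cells; right, the percentage of each class's UMIs held by cells above 2 times the median UMI count of their library and class. Early_NG cells are the lowest points in 6 of 7 libraries on the left, and E26a holds 60.9% on the right.

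The rows that peaked in Early_NG cells were few. A peak row had a mean level over libraries of at least 20 UMIs per 1e6 UMIs of the class in a library (CPM) in Early_NG cells, and at least 2 times the mean level in each of the other 4 classes. There were 11 such rows. The classes had been annotated from the expression of these same cells, so the levels are a description and no test of the classes against each other was made. Of the 11 rows, 10 were highest in Early_NG cells in every library that could be compared, and the next class was primary progenitors for 7 rows, ganglion cells for 2 and photoreceptor precursors for 2. The median excess over the next class was 2.33-fold and the highest 3.55-fold. Of the 11 rows, 8 formed 4 pairs of rows next to each other in the matrix, and whether the rows of a pair belong to the same locus was not tested. Without the cells of high UMI count 16 rows met the same limits, all 11 among them.

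Row 27128 was by far the most abundant peak row. Its level in Early_NG cells was 4603 CPM in E18, 5239 CPM in E21a, 4375 CPM in E21b, 3975 CPM in E24a, 4590 CPM in E24b, 3233 CPM in E26a and 4361 CPM in E26b, a mean of 4339 ± 619 CPM (SD, n = 7). The highest library was 1.62 times the lowest, which made it the steadiest of the 11 rows across libraries. Its mean level was 1910 ± 360 CPM in photoreceptor precursors (n = 6), 1252 ± 603 CPM in primary progenitors, 983 ± 552 CPM in ganglion cells and 337 ± 39.8 CPM in horizontal cells. At 2000 UMIs per cell, 97.4% to 99.5% of Early_NG cells were expected to show at least 1 UMI of this row, against 86.3% to 92.0% of photoreceptor precursors and 37.4% to 53.8% of horizontal cells. Without thinning, these shares were 99.1% to 100% in Early_NG cells and 60% to 82.2% in horizontal cells, whose median depth was 3511 to 6986 UMIs against 4656 to 9684 UMIs in Early_NG cells.

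Row 14354 was the second in level. Its mean was 2.26 times that of the next class, against 2.27 times for row 27128. Its level in Early_NG cells was 1035 CPM in E18, 700.1 CPM in E21a, 866 CPM in E21b, 606 CPM in E24a, 549.7 CPM in E24b, 604 CPM in E26a and 472 CPM in E26b, a mean of 690 ± 197 CPM. The mean was 305 ± 28.6 CPM in primary progenitors, 192 ± 95.5 CPM in photoreceptor precursors, 55.1 ± 31.0 CPM in ganglion cells and 53.9 ± 14.3 CPM in horizontal cells. At 2000 UMIs per cell the row was expected in 49.97% to 70.6% of Early_NG cells, 35.0% to 43.5% of primary progenitors and 5.62% to 11.9% of horizontal cells. Taking horizontal cells as the background, the share in primary progenitors was above it in every library.

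The distance between Early_NG cells and primary progenitors in these rows narrowed with age. The 11 rows together took 0.754%, 0.790% and 0.694% of Early_NG UMIs in E18, E21a and E21b, and 0.579%, 0.669%, 0.505% and 0.613% in E24a, E24b, E26a and E26b. In primary progenitors they took 0.0890%, 0.159% and 0.158% in the earlier libraries, and 0.244%, 0.243%, 0.271% and 0.290% in the later ones. In both classes the libraries of the 2 periods did not overlap, with Early_NG cells lower and primary progenitors higher at E24 and E26. The 11 rows include rows 25839 and 25840, which reached the 20 CPM limit only through E18 and E21. In Early_NG cells of E18 they were at 267 and 100 CPM. At E24 and E26 they were at 9.90 to 19.2 CPM and 8.36 to 17.2 CPM. Part of the Early_NG fall was therefore built into the choice of rows, and shares without these 2 rows were not calculated. The ratio of the Early_NG share to the primary progenitor share was 8.47 in E18, 4.98 in E21a, 4.39 in E21b, 2.37 in E24a, 2.76 in E24b, 1.86 in E26a and 2.11 in E26b. Row 27128 held 61.0% to 71.2% of the Early_NG UMIs in peak rows. The ratio over the other 10 rows, rows 25839 and 25840 among them, was 4.93 in E18 and 1.78 to 2.57 at E24 and E26. Without the cells of high UMI count the ratio over all 11 rows was 8.17, 6.24 and 4.98 in the earlier libraries and 2.61 to 3.29 in the later ones. In ganglion cells the share of the 11 rows was 0.210% in E18 and 0.0508% to 0.0850% at E24 and E26, and in horizontal cells it was between 0.0461% and 0.0590% throughout.

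**Figure D3:**
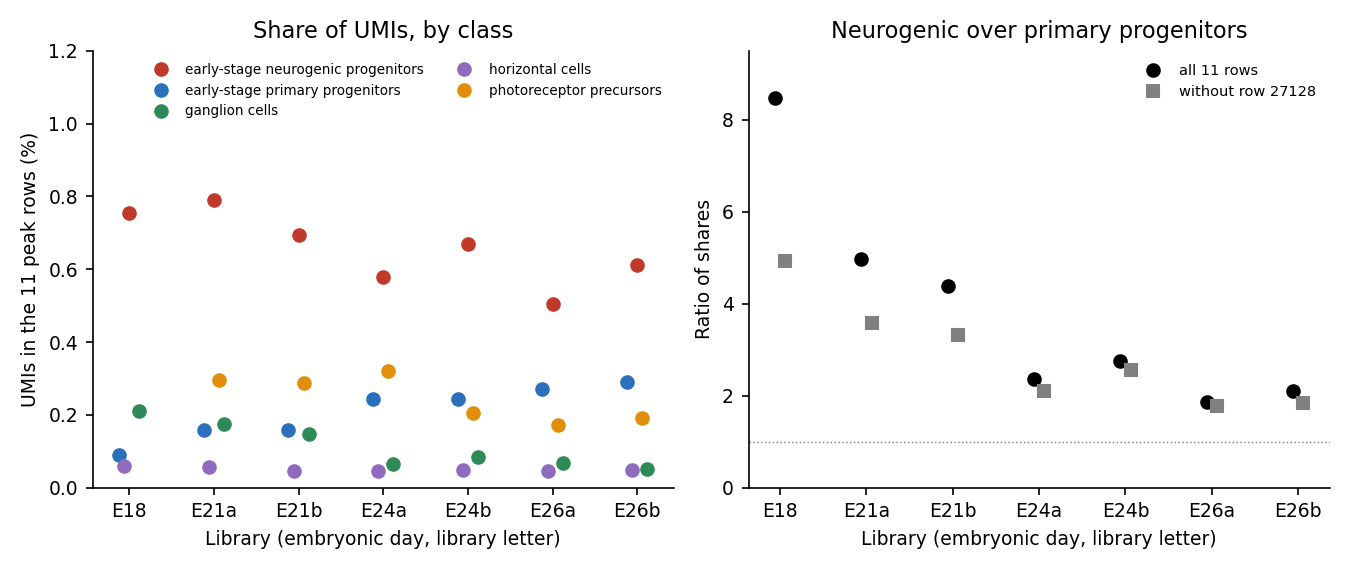
Left, the percentage of each class's UMIs in the 11 peak rows, by library and class (photoreceptor precursors have no value in E18, which held none); right, the Early_NG percentage divided by that of early-stage primary progenitors, for all 11 rows and without row 27128, with a dotted line at 1. The ratio is 8.47 in E18 and 1.86 to 2.76 in the 4 libraries of E24 and E26. Both sets of rows include rows 25839 and 25840, whose fall in Early_NG cells was built into their choice.

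These differences were tested row by row in models across all rows. UMI counts were summed per library and class, and the libraries of E24 and E26 (n = 4) were compared with those of E18 and E21 (n = 3) by edgeR's quasi-likelihood test with Benjamini-Hochberg adjustment. Within Early_NG cells, 2 of the 11 peak rows were lower at E24 and E26 and 0 were higher, where 4.21% of all 10668 rows tested were called, 1.55% as lower and 2.66% as higher. Both were rows that reached the 20 CPM limit only through E18 and E21, row 25839 (9.90 to 19.2 CPM at E24 and E26) and row 25840 (8.36 to 17.2 CPM), so that their fall was built into their choice. Of the other 9 peak rows, edgeR called 0, with 3 at an unadjusted p below 0.05, and DESeq2 called 1 higher and 1 lower. The median log2 change of the peak rows was -0.28, against -0.0034 for all rows tested. Within primary progenitors, 4 peak rows were higher and 0 were lower, where 7.49% of all rows were called, 4.17% as higher. Row 27128 rose in primary progenitors, where it was 294 CPM in E18, 846 CPM in E21a, 806 CPM in E21b, 1575 CPM in E24a, 1608 CPM in E24b, 1693 CPM in E26a and 1943 CPM in E26b, with a log2 change of 1.50 ± 0.29 (SE, edgeR adjusted p = 0.0150). Every later library was above every earlier library. In Early_NG cells the log2 change of the same row was -0.10 ± 0.17 (edgeR adjusted p = 0.799). The share of primary progenitors expected to show it at 2000 UMIs was 30.8% in E18, 47.7% to 54.6% at E21 and 74.1% to 81.8% at E24 and E26.

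The stage change of Early_NG cells was then tested against that of primary progenitors of the same libraries, as an interaction of class and stage with the library as a block. The change differed for 8 of the 11 peak rows, and in each it was more negative in Early_NG cells. Rows 25839 and 25840 were among the 8, and of the other 9 peak rows 6 were called. Of all 15620 rows tested, 3.51% were called, and 1.50% were called more negative. The interaction of row 27128 was -1.72 on the log2 scale (edgeR adjusted p = 8.3e-05) and that of row 14354 was -0.49 (edgeR adjusted p = 0.0360). The count was 7 to 9 of 11 with DESeq2, with age as a continuous term, without the filter on low counts, without cells of high UMI count and without each library in turn, and 0 of 11 without the library block. Over the 9 rows it was 5 to 7 in the same settings and 0 without the block. Against ganglion cells, 5 of the 11 peak rows had a more positive change in Early_NG cells and 1 a more negative change, where 4.32% of 16378 rows were called, 3.13% as more positive and 1.19% as more negative. Within ganglion cells alone, 8 of the 11 rows were lower at E24 and E26 and 0 were higher, where 18.2% of all rows were called, 8.30% as lower.

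Across all rows, 449 of 10668 differed between the stages within Early_NG cells. Of these, 284 were higher and 165 lower at E24 and E26, and 204 and 102 of them changed at least 2-fold. At an unadjusted p below 0.05 there were 2055 rows. Among the rows called higher, 252 had no overlap between the libraries of the 2 periods, and among the rows called lower 162 had none, where 18.7% of all rows tested had none. By the means of the time points, the largest step lay between E21 and E24 for 176 of the higher and 151 of the lower rows. The stage comparison divided the libraries at that step, so the choice of rows favoured it and these counts do not date the change. Of the higher rows 220 rose at every step, where 8.82% of all tested rows did. Of the lower rows 82 fell at every step, where 11.1% of all tested rows did. The count rested on few libraries: it was 112 without E18, 203 without E24a, 226 without E26a, 283 without E21a and 290 without E26b. Of the 449 rows, 105 were called again without E18, and all 449 kept their direction. Without cells of high UMI count, whose share of the UMIs was higher in every later library than in every earlier one, 323 rows were called. Of the 449 rows, 270 were among them.

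The rows that changed can be described by the class in which they were most abundant. Of the rows higher at E24 and E26, 134 of 284 (47.2%) had their highest mean level in primary progenitors, where 22.5% of all tested rows did, and 11 (3.87%) had it in Early_NG cells, where 14.6% of all tested rows did. Of the lower rows, 48 of 165 (29.1%) were highest in Early_NG cells and 41 (24.8%) in horizontal cells, where 16.5% of all tested rows were highest in horizontal cells. Ganglion cells led 28.2% of the higher and 23.0% of the lower rows, and 25.7% of all rows tested. These are counts over rows, which are not independent, and no test was made of them. The leading class was taken from mean levels that include the Early_NG values used to call the rows. A high Early_NG level at E18 and E21 therefore favours both a call as lower and Early_NG cells as the leading class. The means of photoreceptor precursors lack E18.

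Among rows past the threshold, with no overlap between libraries and at least 50 CPM in the higher period, row 666 rose most. Its level in Early_NG cells was 6.72 CPM in E18, 27.4 CPM in E21a, 7.81 CPM in E21b, 109 CPM in E24a, 31.9 CPM in E24b, 523 CPM in E26a and 30.5 CPM in E26b. E26a was far above the other libraries, and the row's 3 highest cells held 54.1% of its UMIs there. The log2 change was 3.96 ± 0.94 (SE, edgeR adjusted p = 0.0306). It was 2.29 without E26a. The edgeR adjusted p was 0.123 without E18, 0.0941 without E21b and 0.0604 without E24a. The row was most abundant in ganglion cells, with 875 to 2247 CPM, and its level in primary progenitors was 5.63 to 68.1 CPM. It also rose within primary progenitors (log2 change 2.20, edgeR adjusted p = 0.0207) and within ganglion cells (0.96, edgeR adjusted p = 0.00441). No difference in stage change was detected between Early_NG cells and primary progenitors (interaction 1.14, edgeR adjusted p = 0.375) or ganglion cells (interaction 2.20, edgeR adjusted p = 0.126). The part of ganglion cell RNA in this rise was not tested.

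Row 11665 gave a rise that every library shared. Its level in Early_NG cells was 1.01 CPM in E18 (3 UMIs), 42.5 CPM in E21a, 27.0 CPM in E21b, 174 CPM in E24a, 113 CPM in E24b, 191 CPM in E26a and 172 CPM in E26b, a log2 change of 3.07 ± 0.56 (SE, edgeR adjusted p = 0.00933). The adjusted p stayed below 0.05 in all 13 alternatives to the 2-period fit that gave a value and when age was continuous. In primary progenitors the row was higher in every library, from 20.5 CPM in E18 to 427 CPM in E24a, with a log2 change of 1.79 (edgeR adjusted p = 0.0742). The change in Early_NG cells exceeded that in primary progenitors by 1.27 on the log2 scale (edgeR adjusted p = 0.00101). Ganglion cells held 1.22 to 17.9 CPM.

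Of the falling rows, row 3366 had the largest change and rested on a single library. It was at 1098.5 CPM in E21a and at 7.38 to 18.0 CPM in the other 6 libraries, a log2 change of -5.17 ± 1.13 (SE, edgeR adjusted p = 0.0218) that became -0.67 (edgeR adjusted p = 0.336) without E21a. The same library was high in every other class, with 1039 CPM in primary progenitors, 768 CPM in ganglion cells, 1310 CPM in horizontal cells and 971 CPM in photoreceptor precursors. The excess of E21a was shared by all 5 classes.

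Row 25839, itself a peak row that was chosen through its levels at E18 and E21, fell in Early_NG cells in step with age. Its level was 267 CPM in E18, 59.2 CPM in E21a, 57.7 CPM in E21b, 19.2 CPM in E24a, 12.3 CPM in E24b, 11.8 CPM in E26a and 9.90 CPM in E26b. The log2 change was -3.16 ± 0.50 (SE, edgeR adjusted p = 0.00437), and the adjusted p stayed below 0.05 in all 13 alternatives. At E18 the level was 15.7 CPM in primary progenitors, 47.3 CPM in ganglion cells and 16.9 CPM in horizontal cells. Primary progenitors lay between 4.63 and 15.7 CPM at all ages. The row also fell within ganglion cells, to 5.76 CPM in E26b (log2 change -1.62 ± 0.32, SE, edgeR adjusted p = 0.00773). Horizontal cells held 10.9 to 21.8 CPM at E18 and E21 and 2.28 to 5.74 CPM at E24 and E26. The change in Early_NG cells was more negative than that of primary progenitors (interaction -2.49, edgeR adjusted p = 3.5e-05). It was also more negative than that of ganglion cells (interaction -1.36, edgeR adjusted p = 0.0194). The other peak row that fell was its neighbour in the matrix.

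**Figure D4:**
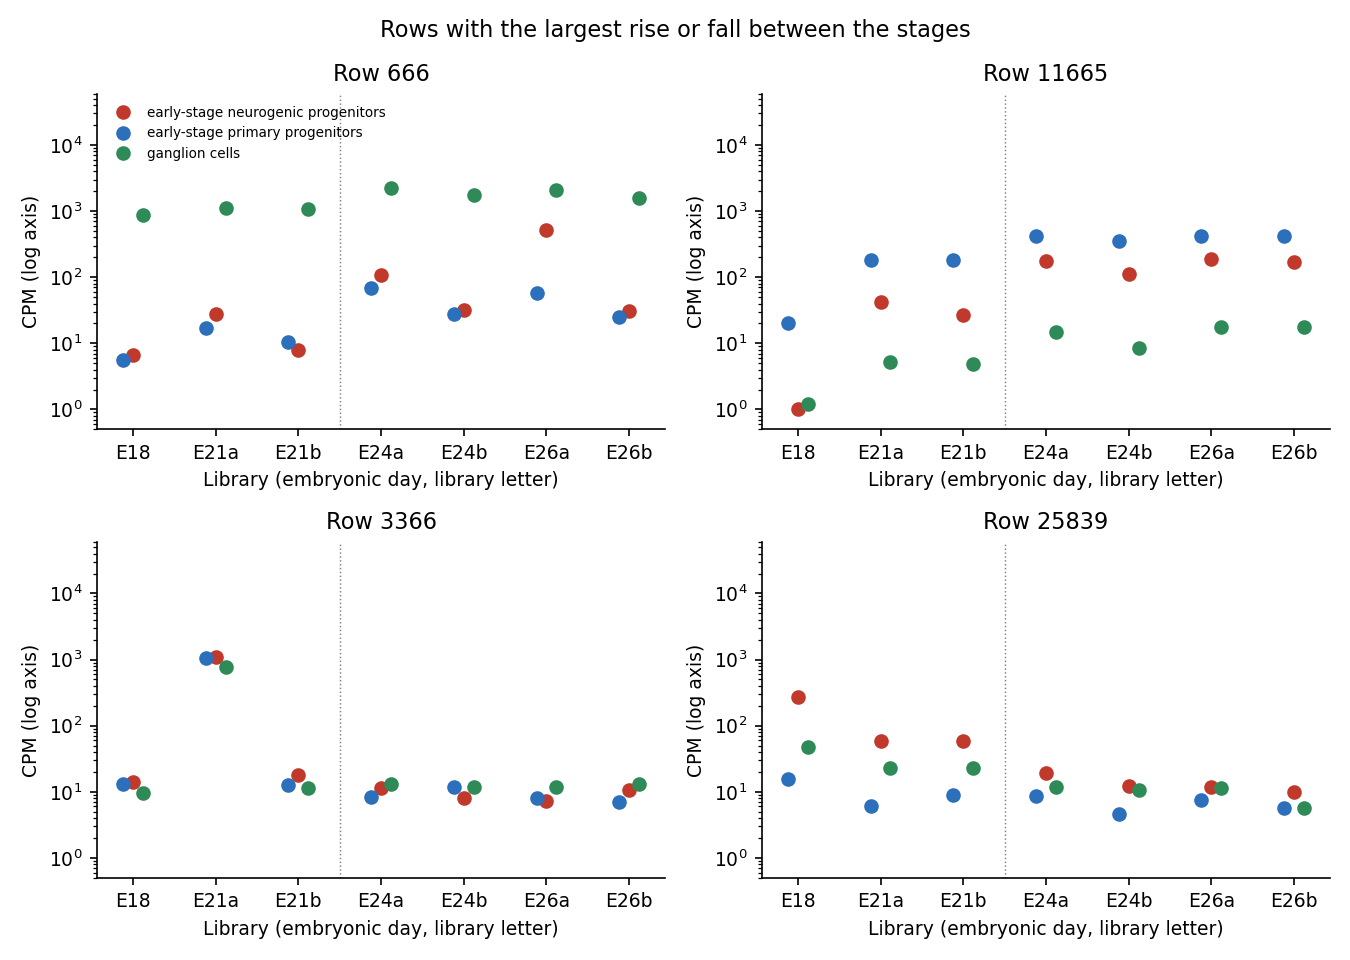
CPM (log axis) of the 2 rows with the largest rise and the 2 with the largest fall between E18 or E21 and E24 or E26, in Early_NG cells, early-stage primary progenitors and ganglion cells of each library; the dotted line divides the periods. Row 3366 is high in all 3 classes of E21a, and row 25839 falls from 267 CPM in E18 to 9.90 CPM in E26b in Early_NG cells.

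The whole table was then read for rows whose stage change differed between Early_NG cells and primary progenitors. There were 548 of 15620 such rows, 313 with the more positive change in Early_NG cells and 235 with the more negative change. Both leading rows of the first kind fell in primary progenitors and were low in Early_NG cells throughout. Row 26378 was at 3.70 to 11.8 CPM in Early_NG cells, and went from 72.8 ± 30.6 CPM in primary progenitors at E18 and E21 (n = 3) to 22.8 ± 4.62 CPM at E24 and E26 (n = 4). The interaction was 2.74 ± 0.36 (SE, edgeR adjusted p = 5.8e-05), with an adjusted p of 0.0836 without cells of high UMI count. Row 30976 was at 4.95 to 22.1 CPM in Early_NG cells and went from 87.9 ± 9.79 to 23.1 ± 17.1 CPM in primary progenitors, an interaction of 2.23 ± 0.25 (edgeR adjusted p = 1.0e-05).

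In the other direction the leading rows were row 25839, described above, and row 26043. Row 26043 was at 58.8 CPM in E18, 74.3 CPM in E21a, 51.7 CPM in E21b, 13.9 CPM in E24a, 24.6 CPM in E24b, 17.7 CPM in E26a and 14.03 CPM in E26b in Early_NG cells. The libraries of the 2 periods did not overlap, and the log2 change was -1.65 ± 0.21 (SE, edgeR adjusted p = 0.00107). In primary progenitors it was at 14.7 ± 7.76 CPM before E24 and 20.9 ± 2.98 CPM after it (edgeR adjusted p = 0.245). At E18 and E21 every Early_NG level was above every level in primary progenitors, and at E24 and E26 the levels of the classes overlapped. The interaction was -2.44 ± 0.30 (edgeR adjusted p = 3.7e-05).

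Against ganglion cells, the stage change differed for 708 of 16378 rows, 513 more positive in Early_NG cells and 195 more negative. Row 26501 was at 130 ± 16.2 CPM and 127 ± 33.7 CPM in Early_NG cells of the earlier and later libraries, a log2 change of 0.11 ± 0.20 (SE, edgeR adjusted p = 0.804), while in ganglion cells it went from 2.99 ± 0.81 to 25.05 ± 7.38 CPM. The interaction was -3.02 ± 0.22 (edgeR adjusted p = 7.5e-07). Row 26501 was also among the 50 rows chosen as leading photoreceptor precursors, which are described below. Row 2384 went from 19.7 ± 1.67 to 13.6 ± 6.60 CPM in Early_NG cells and from 11.8 ± 5.45 to 56.0 ± 12.5 CPM in ganglion cells (interaction -2.75 ± 0.39, edgeR adjusted p = 0.000615). Row 12265 had 0 to 1 UMI in each earlier Early_NG library and 7 to 42 UMIs in each later one, and was at 43.7 ± 7.32 and 115 ± 24.3 CPM in ganglion cells (interaction 3.36 ± 0.68, edgeR adjusted p = 0.00954, but 0.0878 without E18 and 0.0638 with DESeq2). Row 4884 had 0 to 11 UMIs in any Early_NG library and fell from 101 ± 52.5 to 13.3 ± 5.60 CPM in ganglion cells. Its interaction (3.60 ± 0.87, edgeR adjusted p = 0.0252) measured the fall in ganglion cells and no change in Early_NG cells, and was lost in 6 of 11 alternatives, with an adjusted p of 0.466 with DESeq2 and 0.567 without E26a.

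The levels of rows that lead the neighbouring classes were followed in Early_NG cells. For each of primary progenitors, ganglion cells, horizontal cells and photoreceptor precursors, 50 rows were chosen by their excess over the other classes, without use of Early_NG cells. Photoreceptor precursor rows took 0.114% of Early_NG UMIs in E18, 0.145% in E21a, 0.153% in E21b, 0.139% in E24a, 0.149% in E24b, 0.170% in E26a and 0.158% in E26b. The rise with age did not hold after adjustment over the 4 lists (rho = 0.75, exact permutation p = 0.0667, adjusted p = 0.267; r = 0.81, exact permutation p = 0.0254, adjusted p = 0.102). Leaving out E18 and E21a gave r = 0.46. The relation depended on the length of the list, with rho = 0.97 for 25 rows (exact permutation p = 0.00317) and 0.39 for 100 rows (exact permutation p = 0.413). The excess over primary progenitors of the same library had rho = -0.31 (exact permutation p = 0.502). In primary progenitors of the same libraries these rows took 0.0488% in E18 and 0.0998% in E26b, with rho = 0.97 (exact permutation p = 0.00317, adjusted p = 0.00635). Early_NG cells were above primary progenitors in every library, by 0.0541 to 0.0867 percentage points. The rise within primary progenitors was not particular to this list. Primary progenitor rows had rho = 0.97 there (exact permutation p = 0.00317, adjusted p = 0.00635). Ganglion cell rows had rho = 0.83 (exact permutation p = 0.0381, adjusted p = 0.0508) and horizontal cell rows 0.64 (exact permutation p = 0.127, adjusted p = 0.127).

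Ganglion cell rows were low in Early_NG cells, at 0.0491% to 0.0729% of the UMIs, except in E26a, where they took 0.247%. In ganglion cells the same rows took 1.02% to 1.89%. In E26a, cells above 2 times the median UMI count held 88.2% of the Early_NG UMIs in these rows, and 3 cells held 47.5%. Without the high cells the share in E26a was 0.0743%, inside the range of 0.0584% to 0.0824% of the other libraries. Horizontal cell rows took 0.101% to 0.177% and primary progenitor rows 0.384% to 0.686% of Early_NG UMIs. None of these lists showed a detectable relation to age in Early_NG cells (rho = 0.00 for ganglion cell rows, exact permutation p = 1.00; -0.39 for horizontal cell rows and 0.39 for primary progenitor rows, exact permutation p = 0.413 each). Primary progenitor rows took 0.788% to 1.147% in primary progenitors and were lower in Early_NG cells in every library, with differences of -0.239 to -0.583 percentage points. For horizontal cell rows, the excess over primary progenitors was 0.0919 percentage points in E18 and 0.0127 to 0.0568 at E24 and E26. Its fall with age did not hold after adjustment over the 4 lists (rho = -0.75, exact permutation p = 0.0667, adjusted p = 0.267). Pearson's r was -0.79 (exact permutation p = 0.0413, adjusted p = 0.165). The same measure had rho = -0.33 for ganglion cell rows (exact permutation p = 0.470).

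Each Early_NG cell was also assigned to the nearest neuronal profile. With ganglion cells, horizontal cells and photoreceptor precursors as the choices, 97.7% of Early_NG cells in E18 and 86.7% to 98.4% over all libraries were nearest to photoreceptor precursors, and 1.61% to 13.3% were nearest to horizontal cells. The share nearest to ganglion cells was 0% in the 3 earlier libraries, E24b and E26b, 0.870% in E24a and 3.62% in E26a. In E26a, 14 of the 15 such cells were of high UMI count. Without the cells of high UMI count this share was 0.295% in E26a and 0% in every other library. None of the 3 shares was related to age (adjusted p of rho 0.462 to 0.730 over 3 types, exact permutation tests). With profiles from the same library, possible in 5 libraries, E26a gave another picture. In it 53.1% of Early_NG cells were nearest to horizontal cells and 44.4% to photoreceptor precursors, against 0.870% to 11.3% and 88.7% to 99.1% in the other 4. With profiles from the other libraries, primary progenitors gave nearly the same picture as Early_NG cells, with 84.0% to 99.2% nearest to photoreceptor precursors.

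When primary progenitors were added to the choices, a step added after the data had been seen, most Early_NG cells were nearest to primary progenitors. The share was 53.3% in E18, 55.3% in E21a, 59.5% in E21b, 83.0% in E24a, 64.4% in E24b, 62.1% in E26a and 90.3% in E26b. Photoreceptor precursors took 45.6%, 41.0%, 30.4%, 13.9%, 34.2%, 32.9% and 8.06% in the same order. All 4 later libraries were above all 3 earlier ones in nearness to primary progenitors. The relation to age was rho = 0.83 (exact permutation p = 0.0381) and r = 0.69 (exact permutation p = 0.0889), with r = 0.48 without E18 and E21a. Without cells of high UMI count rho was 0.62 (exact permutation p = 0.146). The exact permutation p was also above 0.05 without E18 (0.178), E21a (0.122), E21b (0.122) or E26b (0.0778). Of the primary progenitors themselves, 99.8% to 100% were nearest to their own class in this assignment.

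**Figure D5:**
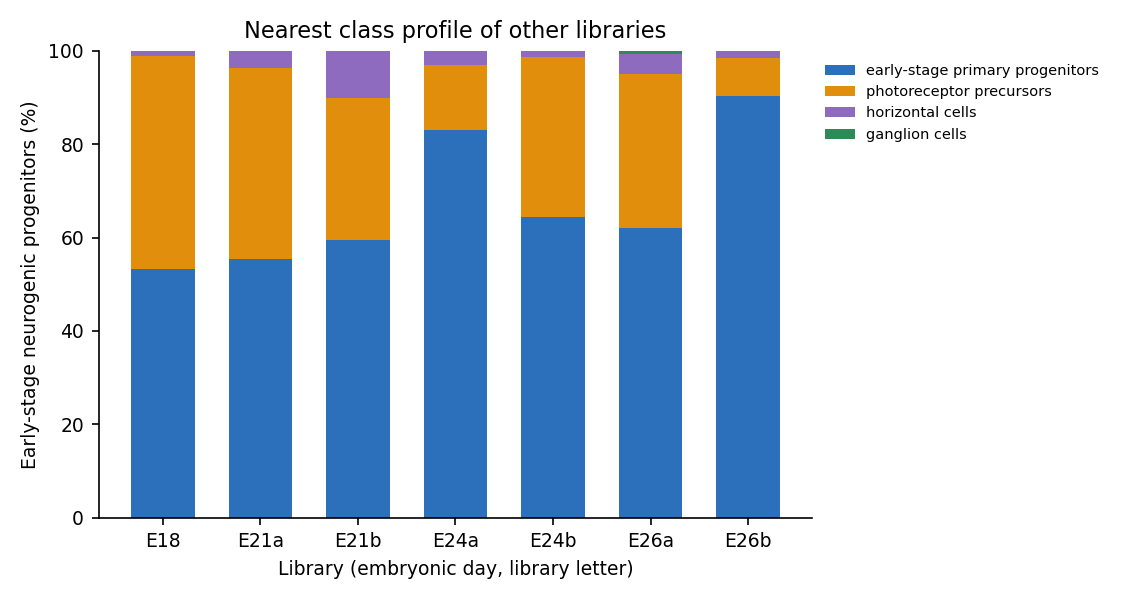
Percentage of Early_NG cells of each library that were nearest to each of 4 class profiles, taken from the other libraries, at 2000 UMIs per cell. Primary progenitors take 53.3% to 59.5% at E18 and E21 and 62.1% to 90.3% at E24 and E26, and photoreceptor precursors take most of the rest.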

How the data were processed

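Whole retinas were profiled with 10x Chromium 3′ v3.1 libraries. The study's methods state that the authors mapped reads with Cell Ranger 3.1.0 to the HiC_Itri_2 assembly, merged the libraries with its aggr step and named clusters from marker genes in Seurat 4.0.4; the submitters' processing notes name another build, GRCm38. Filters on cells, doublet removal and depth subsampling: not given in the sources used here. No doublets were removed here. The deposited values were UMI counts per row and cell, not normalized.

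All deposited Early_NG cells of E18 to E26 were kept. Cells of P1 and P12, whose time points were not matched to samples here, were only counted. Counts were summed per library and class (at least 10 cells), filtered with filterByExpr, scaled by TMM and tested with edgeR 4.0.16 in R 4.3.3 (glmQLFit, glmQLFTest), after testing on simulated data. The threshold was an adjusted p of 0.05 (Benjamini-Hochberg). CPM are UMIs per 1e6 UMIs of the sum. SE is the log2 change divided by the square root of F. The interactions held the library as a block. Relations to age and paired differences over the 7 libraries used two-sided exact permutation tests in Python 3.11.15 with scipy 1.17.1. Named rows are the 2 with the largest rise and the 2 with the largest fall among called rows whose libraries do not overlap between periods and whose mean in the higher group is at least 50 CPM, and the 2 most abundant peak rows. The members, lists and tests were chosen with earlier results of these data known. Alternatives were DESeq2 1.42.0, DESeq2 size factors, no filter, continuous age, thinned sums, pooled annotations, other list sizes and depths, and each library left out in turn. The sums of Early_NG cells held 1211584 UMIs (E26b) to 4064987 UMIs (E26a). No sequences are given, because rows are not paired with names.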

Additional observations from a re-analysis of the deposited data

Results flagged for a closer look

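E26a lay apart from the other libraries in 5 measures of Early_NG cells, by the gap of its value to the next relative to the whole range (Dixon's 95% limit). Chance flags about 1 in 20 groups, and 30 groups were examined. Early_NG cells per 100 early-stage primary progenitors were 41.7, against 12.4 to 24.4 in the other 6 libraries. The highest UMI count of an Early_NG cell was 295040, against 53835 to 73143 in the other 3 libraries of E24 and E26 and 20722 to 73143 in all 6 others. Late-stage cells were 8.01% of neurogenic progenitors, against 0% to 1.35% in the other libraries of E24 and E26 and 0% to 3.03% in all 6 others. Ganglion cell rows took 0.247% of the Early_NG UMIs, against 0.0491% to 0.0729%. Row 666 was at 523 CPM, against 30.5 to 108.5 CPM in the other 3 libraries of E24 and E26. That row was most abundant in ganglion cells, and without cells of high UMI count its level in E26a was 78.0 CPM. Row 666 was among the 50 ganglion cell rows and held 2127 of their 10024 Early_NG UMIs in E26a, so these measures overlap. Whether the other values share a source was not tested.

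The stage change differed between Early_NG cells and early-stage primary progenitors for 548 rows, and between Early_NG cells and ganglion cells for 708 rows, by the edgeR test of the interaction itself.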

How the results depend on the processing

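No paired analysis was possible between ages because the cell names do not carry the replicate numbers of the labels; classes of the same library were paired by library. The 449 rows that differed between the stages became 848 (541 higher, 307 lower) with age as a continuous term and 1054 (653 higher, 401 lower) with no filter on low counts, and 112 to 595 (59 to 385 higher, 53 to 210 lower) without single libraries. The 548 rows that differed in stage change from primary progenitors became 314 with DESeq2, 26 without the library block, 305 without cells of high UMI count and 185 to 632 without single libraries (185 without E18 and 341 without E21b). The 708 rows against ganglion cells became 408, 186, 1070 and 196 to 913 in the same settings (196 without E18, 360 without E24a, 397 without E21b, 452 without E26b and 464 without E21a), 1131 with continuous age and 1126 with no filter. Without the library block the peak rows called were 0 against primary progenitors and 2 against ganglion cells, and without single libraries they were 7 to 9 and 4 to 6. The 11 peak rows became 3 at a 3-fold limit, 6 at 100 CPM, 16 without cells of high UMI count and 9 to 16 without single libraries. The rho of photoreceptor precursor rows with age was 0.97 with 25 rows (exact permutation p = 0.00317), 0.39 with 100 rows, -0.31 for the difference from primary progenitors, 0.83 without cells of high UMI count (exact permutation p = 0.0381) and 0.60 to 0.88 without single libraries. That of nearness to primary progenitors was 0.62 without cells of high UMI count and 0.72 to 0.97 without single libraries, where 4 of 7 exact permutation p-values were above 0.05. With profiles from the same library rho was 0.79 for nearness to horizontal cells and -0.79 for photoreceptor precursors (5 libraries, exact permutation p = 0.133 each), and without single libraries the latter was -0.21 to 0.47. That of the share of Early_NG cells was -0.79 to 0.0883 and of the ratio to primary progenitors -0.12 to 0.62 without single libraries. That of primary progenitor rows was -0.51 for the difference from primary progenitors, and that of horizontal cell rows was 0.0918 with 25 rows. The difference from primary progenitors in detected genes was -1.79 with library means and -0.98 to 7.27 without single libraries. The deficit in UMIs against primary progenitors was -2764 with library means (exact permutation p = 0.0625) and -2102 to -1583 without single libraries, where the exact permutation p was 0.0625 in 6 of 7 cases and 0.0312, the smallest that 6 libraries allow, without E24a. The cause of these changes was not tested. No named row changed direction in any alternative. The E18 library has no partner, so its part and that of its age cannot be told apart. Depth limits the comparison of rows under about 10 UMIs in a library.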
